A study of Mus musculus with 96 samples.

Results

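The p53 pathway was followed through 9 of its genes, namely Trp53, which encodes p53 itself, and 8 genes that p53 is known to switch on: Mdm2, Ccng1, Trp53inp1, Cdkn1a, Bax, Bbc3, Phlda3 and Zmat3. The members were picked by name as genes of 1 pathway, with no threshold on a value, at a time when earlier results of these data were known. All 9 were among the 36205 gene rows of the deposited count table, and all 9 passed the filter on low counts that 10868 genes passed.

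The cells were E14, a line of mouse embryonic stem cells, labelled wild-type and C57BL/6, kept in serum/LIF medium (LIF is leukaemia inhibitory factor, which holds such cells in the pluripotent state), and 1 cell was read per library. The messenger RNA of each cell was parted from its DNA by G&T-seq, a method that reads both from the same cell, and was sequenced after tagmentation with Nextera XT reagents at reduced volume. The series lists 96 wells: 76 of serum/LIF cells, 16 of 2i cells and 4 with no cell. Counts of 61 serum/LIF cells were used, and the 2i wells, the wells with no cell and the other 15 serum/LIF wells were not analysed here. No treatment, genotype or growth condition was therefore compared, and the values describe how the pathway differed from cell to cell within 1 condition of 1 line.

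The cells had between 2417702 and 6787261 counts on genes, with a median of 4244480, and between 5317 and 10032 genes with a count. A count of 0 allowed a level of up to 0.447 to 1.24 CPM (read counts scaled to the size of the library), depending on the cell, taking 3 counts as the limit. The reads carry no molecular identifiers, so this limit covers counting error only. Every pair of cells had a correlation of log levels between 0.369 and 0.613, so none was a copy of another. All 8 stem cell markers on a list of 8 passed the filter, and they were detected in 18 to 61 of 61 cells. Pou5f1, which encodes OCT4, was detected in 61 cells, Sox2 in 54, Nanog in 47, Zfp42 in 42 and Esrrb in 18. None of 8 fibroblast markers passed the filter, and each was detected in 0 to 7 cells. The summed fibroblast level was 0 to 223 CPM, with Postn at 0 counts in every cell. The cells share 1 culture as far as the labels say, so they are not replicates of a condition and no p-value is given.

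p53 is a transcription factor that is kept low by the ubiquitin ligase MDM2 and is stabilised when DNA is damaged or the cell is otherwise stressed. It then switches on genes that stop the cell cycle, repair DNA or start cell death, and also Mdm2, which closes a negative feedback loop. p53 activity is set mainly at the level of the protein, by its stability and modification, so its messenger RNA and its targets need not move together. Mouse embryonic stem cells contain abundant p53, have a short G1 phase and, after DNA damage, are known to lose Nanog expression in a p53-dependent way.

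p53 binds DNA as a tetramer over pairs of a 10-base element, the p53 decamer consensus. RefSeq promoter windows on GRCm38.p6, running from 250 bases before to 50 after a transcription start, were found for 7 of the 9 members. The consensus equals its own reverse complement, so 1 search covered both strands, and it occurred in the windows of 5 of those 7 genes, against 9.55% of 27025 genes with a window. The matches follow, 5′ to 3′ on the strand of the gene, because they show which members carry the element next to their start. Capitals mark the decamer, with 15 bases on either side.
Mdm2: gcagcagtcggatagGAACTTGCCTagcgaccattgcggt
Ccng1: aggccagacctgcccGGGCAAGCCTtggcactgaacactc
Cdkn1a: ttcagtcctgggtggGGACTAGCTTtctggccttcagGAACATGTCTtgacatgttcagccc
Bax: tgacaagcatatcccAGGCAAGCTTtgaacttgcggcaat
Trp53: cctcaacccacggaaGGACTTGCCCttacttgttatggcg

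The Mdm2 stretch lies at chr10:117710920-117710959 on the minus strand, with its decamer at bases -186 to -177 from the start. The Ccng1 stretch lies at chr11:40755447-40755486 on the minus strand, with its decamer at -185 to -176. The Cdkn1a stretch lies at chr17:29090891-29090952 on the plus strand and holds 2 decamers, between -73 and -42, with 12 bases between them. Another Cdkn1a window, of a start further downstream (chr17:29093519-29093818), held no match. Cdkn1a was the only member with 2 decamers at most 13 bases apart, an arrangement found in 0.0740% of genes with a window. The Bax stretch lies at chr7:45467075-45467114 on the minus strand, with its decamer at -201 to -192, and that of Trp53 at chr11:69580269-69580308 on the plus strand, with its decamer at -75 to -66. The windows of Phlda3 and Bbc3 held no match to these letters, and Trp53inp1 and Zmat3 had no window. A match is a description of the sequence and says nothing of binding, and known p53 sites of several members lie outside such windows.

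Trp53 (ENSMUSG00000059552, GRCm38 chr11:69580359-69591873, plus strand) was detected in every cell. Its level was 24.5 CPM in the lowest cell, 196 CPM at the median and 511 CPM in the highest. The middle 50% of cells held levels between 115 and 247 CPM. The spread between cells was measured as the squared coefficient of variation (CV2) and divided by the median CV2 of the 200 tested genes nearest in mean level. For Trp53 this ratio was 0.527, so the gene varied less than most genes of its level, and its CV2 stood at the 13.5 percentile of those 200.

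Of the genes that act back on p53, Mdm2 and Trp53inp1 had the highest CV2 ratios of all 9 members. Mdm2 (ENSMUSG00000020184, chr10:117688875-117710758, minus strand), the ligase that marks p53 for destruction, was detected in 59 of 61 cells, at 0 CPM in the lowest, 132 CPM at the median and 1560 CPM in the highest cell. Its CV2 was 2.97 times that of genes of its level, and the highest cell alone, in well F03, held 11.3% of all Mdm2 CPM. Without that cell the ratio was 2.02, so Mdm2 still varied more than most genes of its level. Trp53inp1 (ENSMUSG00000028211, chr4:11156431-11174379, plus strand), which encodes a stress-induced protein that promotes p53 phosphorylation and autophagy, had 0, 258 and 1762 CPM in the lowest, median and highest cell. It was detected in 57 cells, and its CV2 ratio of 3.27 was the highest of the 9 members. Without the highest cell, again F03, the ratio was 2.90. Ccng1 (ENSMUSG00000020326, chr11:40748552-40755311, minus strand) encodes cyclin G1, a partner of a phosphatase that acts on MDM2. It was detected in every cell, with 5.87, 401 and 1290 CPM in the lowest, median and highest cell and a CV2 ratio of 1.30.

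Cdkn1a (ENSMUSG00000023067, chr17:29090976-29100727, plus strand) encodes p21, the inhibitor of cyclin-dependent kinases through which p53 stops the cell cycle. It had 0 CPM in the lowest cell, 106 CPM at the median and 901 CPM in the highest. The gene was at 0 counts in 10 cells and had at least 10 counts in 50, so cells without a read stood beside cells with ample counts. Its CV2 ratio was 2.16, at the 93.0 percentile of genes of its level. A transcript annotated on the opposite strand shares 7.68% of its exon bases, and whether strand was used in counting was not stated.

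The cell death genes covered a wide span of levels. Bax (ENSMUSG00000003873, chr7:45461697-45466898, minus strand), whose protein opens the mitochondrial outer membrane, was detected in every cell, at 128 CPM in the lowest, 322 CPM at the median and 784 CPM in the highest cell. Its CV2 ratio was 0.442, at the 9.5 percentile, and the middle 50% of cells differed by a factor of 1.48 only. Another annotated gene on the same strand, Gm45808, shares 12.2% of Bax exon bases. Bbc3 (ENSMUSG00000002083, chr7:16308393-16318205, plus strand), which encodes the BH3-only protein PUMA, had the lowest level per kilobase of the 9, with 0, 3.32 and 84.9 CPM in the lowest, median and highest cell. It was at 0 counts in 21 of 61 cells, and the cell in well A09 held 12.1% of its summed CPM. Its CV2 ratio of 0.417 depended on which low genes it was set against, and was 0.870 with a filter of at least 10 counts in at least 20 cells and 1.20 in the cells of plate rows E to H alone. Its CV2 itself, 2.43, was the highest of the 9 members. Phlda3 (ENSMUSG00000041801, chr1:135766119-135769136, plus strand), whose protein restrains AKT, had 0, 105 and 432 CPM in the lowest, median and highest cell and a CV2 ratio of 0.991. Zmat3 (ENSMUSG00000027663, chr3:32334792-32366014, minus strand), an RNA-binding splicing regulator, had 0, 54.5 and 181 CPM and a CV2 ratio of 0.526.

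**Figure D1:**
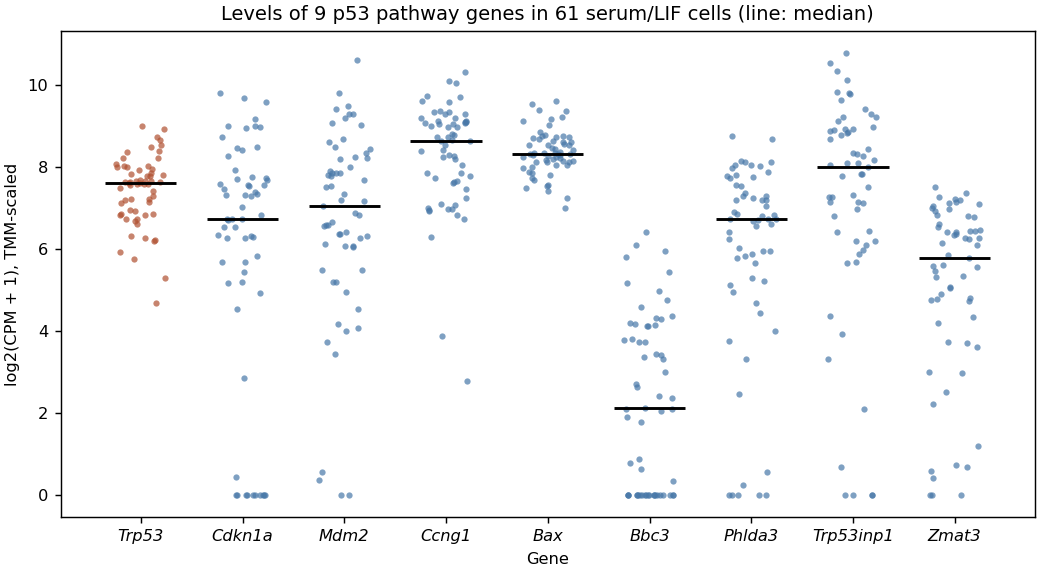
Level of the 9 p53 pathway genes in 61 serum/LIF cells, as log2(CPM + 1) with 1 point per cell and a line at the median. Trp53, Bax and Ccng1 had no cell at 0, while Cdkn1a was at 0 counts in 10 cells and Bbc3 in 21.

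Per kilobase of exon, the scale on which levels of different genes can be set side by side, the median ran from 204 CPM per kb for Bax through 114 for Ccng1, 67.3 for Phlda3, 48.5 for Trp53, 39.9 for Trp53inp1, 29.9 for Cdkn1a and 25.9 for Mdm2 to 4.76 for Zmat3 and 1.56 for Bbc3. Most neighbours in this order overlapped in their middle 50% of cells. The exceptions were Bax over Ccng1, with Bax higher in 48 of 61 cells, and Mdm2 over Zmat3, with Mdm2 higher in 51 of 61 cells. From Phlda3 down to Mdm2 each gene was higher than the next in only 33 to 38 cells, so their order was not separated from the spread between cells.

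The targets were next compared with each other over the 61 cells, to ask whether a cell that was high in one was high in the rest. Spearman's rho was taken on log2(CPM + 1) after removing the linear part explained by the share of genes detected in a cell. The cells share their culture and their preparation on 1 plate as far as the labels show, and the values are descriptions with no test. Of the 28 pairs of targets, 25 had a positive rho and 12 a rho of at least 0.3, with a median of 0.232. For single targets, between 1.05% and 3.29% of the 10859 tested genes that are not members reached 0.3.

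The pairs with a high rho all lay among 6 genes: Cdkn1a, Mdm2, Ccng1, Bbc3, Phlda3 and Trp53inp1, a grouping made after the values were seen. Their 15 pairs had rho between 0.187 and 0.531, with a median of 0.402, and 12 reached 0.3. The highest was Phlda3 with Trp53inp1 at 0.531, followed by Cdkn1a with Trp53inp1 at 0.485. The death gene Bbc3 went with the arrest gene Cdkn1a only weakly, at 0.187, but with Phlda3 at 0.483 and Ccng1 at 0.445. Bax had rho between -0.0638 and 0.223 with the other targets and Zmat3 between -0.0698 and 0.234, and none of their pairs reached 0.3.

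**Figure D2:**
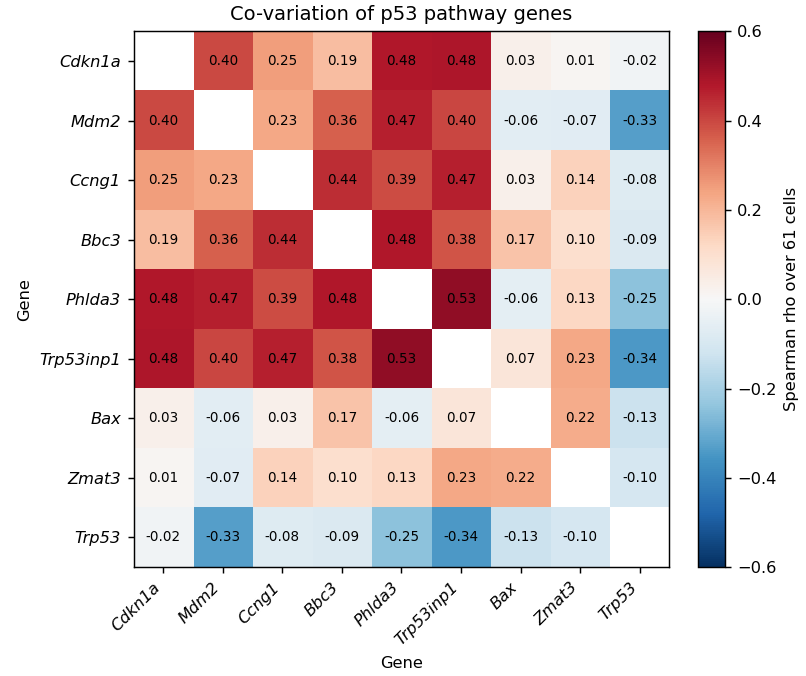
Spearman rho over 61 cells for each pair of the 9 genes, on levels adjusted for the share of genes detected. The block of Cdkn1a, Mdm2, Ccng1, Bbc3, Phlda3 and Trp53inp1 held every pair at or over 0.3, while the row of Trp53 held negative values only.

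To set each member against the rest, the z-scores of the other targets were averaged into an index that left the member out. Trp53inp1 had a rho of 0.633 with the index of its fellows, Phlda3 0.599, Bbc3 0.514, Ccng1 0.495, Mdm2 0.424 and Cdkn1a 0.388. Zmat3 had 0.137 and Bax 0.0520. Phlda3 and Trp53inp1 each reached 0.3 with 5 of the 8 other members, against 2.87% and 3.12% of all other tested genes. Mdm2 and Bbc3 did so with 4, against 2.61% and 1.27%, and Cdkn1a and Ccng1 with 3, against 3.29% and 1.69%. Bax and Zmat3 did so with 0, against 2.67% and 1.05%. Without the 2 cells farthest from the median of the index, the 6 genes kept rho between 0.332 and 0.615, so the pattern did not rest on those cells. Of the targets with a decamer next to their start, Ccng1 had 0.495, Mdm2 0.424, Cdkn1a 0.388 and Bax 0.0520 with the index of the others. Phlda3 and Bbc3, with no match in their windows, had 0.599 and 0.514.

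Trp53 itself ran the other way. Its rho was negative with all 8 targets, between -0.343 and -0.0210, with a median of -0.115. It reached -0.3 with 2 of them, Trp53inp1 at -0.343 and Mdm2 at -0.331, against 1.12% of tested genes at or under that value. With the index of the 8 targets Trp53 had a rho of -0.286. This value differed between the upper and lower part of the plate: it was -0.0361 in the 33 cells of rows A to D and -0.483 in the 28 cells of rows E to H, and that difference was not tested. The cell with the lowest Trp53 level, in well G05 at 24.5 CPM, had 501 CPM of Cdkn1a, 522 CPM of Mdm2 and 878 CPM of Trp53inp1, each above the median of its gene. The cell with the highest, in H03 at 511 CPM, had 55.9 CPM of Cdkn1a, 93.0 CPM of Mdm2 and 3.28 CPM of Bbc3, all below the median. Its other 5 targets, such as Trp53inp1 at 308 CPM and Phlda3 at 252 CPM, were above their medians, and it ranked 12 of 61 by the index of the 8 targets (0.503), so this cell did not follow the negative relation.

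**Figure D3:**
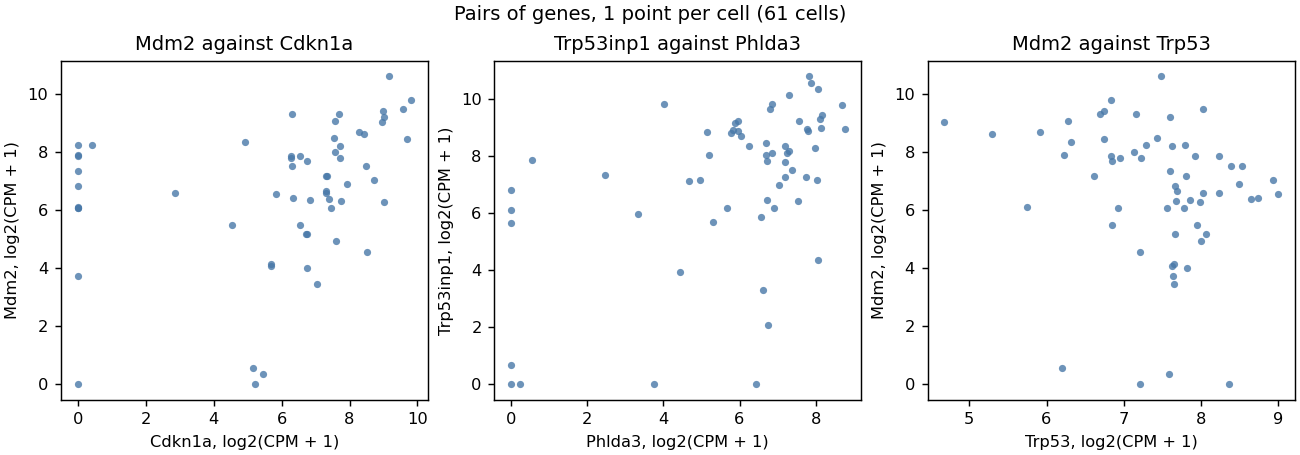
Levels of 3 pairs of genes in each of 61 cells, both axes as log2(CPM + 1). Mdm2 against Cdkn1a and Trp53inp1 against Phlda3 run upward, with cells at 0 along the axes, while Mdm2 against Trp53 runs weakly downward (adjusted rho -0.331).

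An index over all 8 targets placed the cells on 1 scale, from -1.50 in the cell of well C01 to 1.083 in that of F03, with a median of 0.116. No gap parted the cells into sets. The cell in F03 had the highest levels of Mdm2 (1560 CPM), Ccng1 (1290 CPM) and Trp53inp1 (1762 CPM), with 575 CPM of Cdkn1a and 178 CPM of Trp53. The cell in A09 had the highest Bbc3 (84.9 CPM) and Phlda3 (432 CPM), with 766 CPM of Cdkn1a, and yet no count of Zmat3. At the other end, the cell in C01 had no count of Cdkn1a, Mdm2, Bbc3, Phlda3 or Zmat3, yet 147 CPM of Trp53, 201 CPM of Ccng1 and 301 CPM of Bax.

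Depth was set beside the index, and its part in the order of the cells was not tested. C01 had 5731136 counts on 8346 genes, and F03 had 3811674 counts on 8036 genes. Over all 61 cells the unadjusted index had a rho of 0.110 with the total count and 0.216 with the number of genes detected, and the adjusted index had 0.0160 with the mitochondrial share of counts. That last value was -0.214 in plate rows A to D and 0.321 in rows E to H, and the part of the mitochondrial share in the index was not tested. In 34 cells every target had at least 1 count, in 17 cells 1 target was at 0, and 10 cells had 2 or more at 0. In 4 cells, C01, B09, H02 and D02, none of the 8 targets was above its own median, and in 1 cell, F05, all 8 were.

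**Figure D4:**
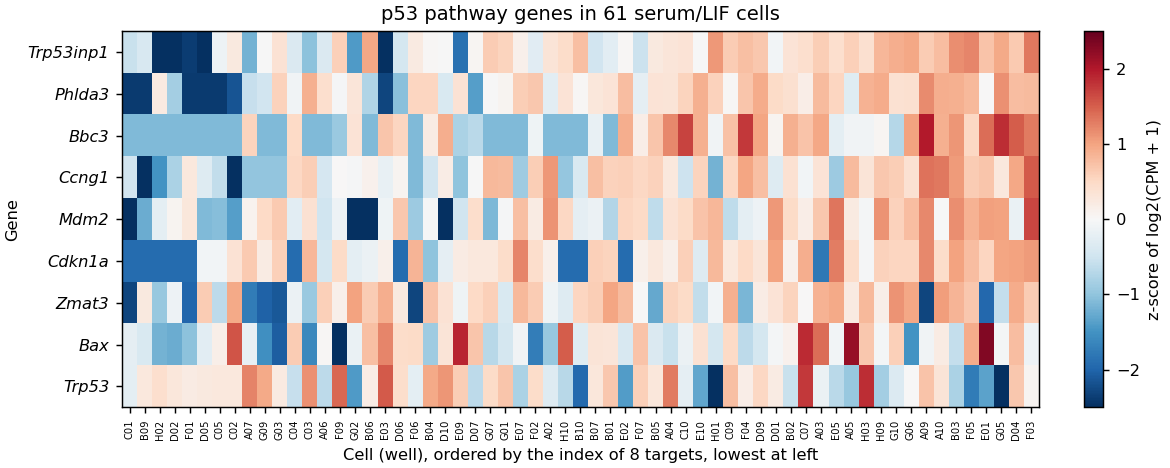
Level of each gene (rows) as a z-score of log2(CPM + 1) in each of 61 cells (columns), ordered by the index of 8 targets with the lowest at left. The rows of Trp53inp1, Phlda3, Ccng1, Mdm2 and Cdkn1a turn from blue to red along the order. This is partly built in because the index contains them. Bax is also in the index and had a rho of 0.0520 with the index of the other targets. Trp53 is not in it and had a rho of -0.286 with the index.

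Other known p53 targets went with the index. Lists of 37 further targets were made, and 30 of their genes passed the filter. Of those 30, 15 had a rho of at least 0.3 with the index, against 2.04% of 10859 tested genes, and their median was 0.281, against -0.00296 over all. At or under -0.3 stood 1 of the 30, Tigar, against 1.55% of tested genes. These lists were drawn up with earlier results of these data known, so the counts describe them and are not independent support.

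Among 12 arrest and repair targets, 5 reached 0.3 and the median was 0.180. They were Plk2 (0.538), a polo-like kinase, Btg2 (0.531), an antiproliferative gene, Ercc5 (0.451), an endonuclease of nucleotide excision repair, Polk (0.317), a translesion polymerase, and Sfn (0.305), a 14-3-3 protein that holds cells in G2. Plk2 had 0, 101 and 861 CPM in the lowest, median and highest cell. Sesn2, a stress-induced sestrin with one of the highest mean CPM values of the list, had 0.254. The repair genes Xpc and Ddb2 had -0.0471 and -0.0677, so the list was split.

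Of 9 death targets 5 reached 0.3, with a median of 0.308, and all 9 were positive. Apaf1, the core of the apoptosome, had the highest rho of any tested gene with the index, 0.590, at 0, 23.3 and 331 CPM in the lowest, median and highest cell. Siva1 (0.517) encodes an apoptosis regulator, Ei24 (0.385) a membrane protein induced by p53, Tnfrsf10b (0.351) a death receptor and Perp (0.308) a desmosomal protein that acts in p53-dependent death. Aen, a nuclease induced by p53, had 0.0562, with one of the highest mean CPM values of the list.

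The 9 metabolic and other targets had a median of 0.341, with 5 at or over 0.3. Dcxr (0.527) is an L-xylulose reductase, Eda2r (0.389) a receptor of the tumour necrosis factor family, Rps27l (0.376) a ribosomal protein paralogue, Ak1 (0.346) an adenylate kinase and Ddit4 (0.341) an inhibitor of mTORC1. Tigar, which lowers glycolytic flux, had -0.301. Rps27l was at 290, 1051 and 2331 CPM in the lowest, median and highest cell, and any reads it shared with its paralogue Rps27 could not be told apart.

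None of 15 tested upstream regulators reached 0.3 in either direction, against 2.04% of tested genes at or over 0.3 and 1.55% at or under -0.3, so a count of 0 is near the background. Their median was -0.0365. Usp7, the deubiquitinase of p53 and MDM2, had -0.129, Chek1, the checkpoint kinase, -0.222 and Atm, the kinase that senses double-strand breaks, -0.100. Ppm1d, a phosphatase that p53 itself induces, had the highest value at 0.244, and Mdm4, the relative of MDM2 that inhibits p53, had -0.0365. Cdkn2a, whose ARF product restrains MDM2, was detected in 9 cells, and the p53 relatives Trp63 and Trp73 in 3 and 5 cells, and these were not tested.

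**Figure D5:**
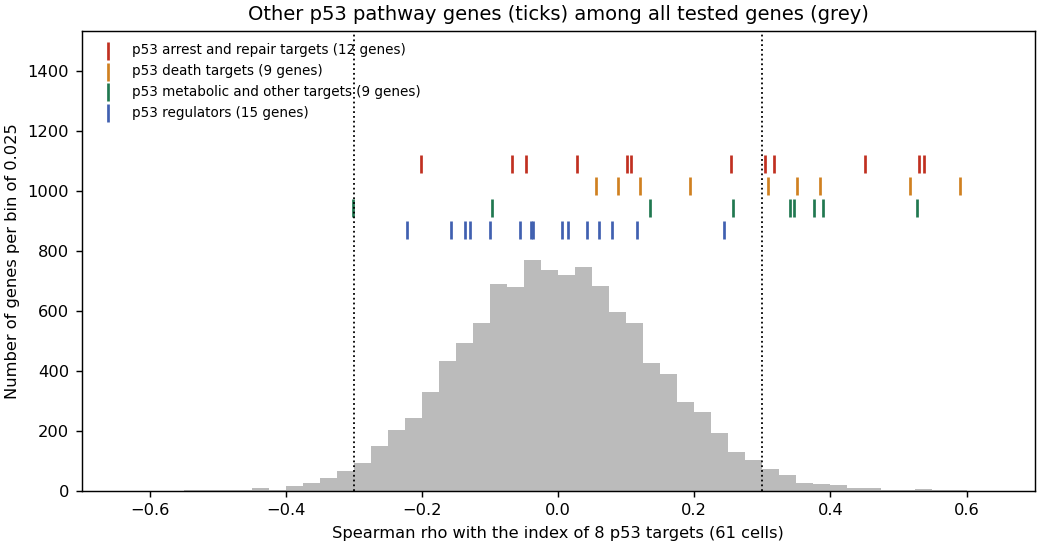
Spearman rho with the index of 8 targets over 61 cells: the grey histogram counts all tested genes that are not members, and coloured ticks mark the genes of 4 p53 lists, placed above it with no meaning of height. Dotted lines stand at -0.3 and 0.3, and 15 target ticks lie at or past the upper one; no regulator tick passes either.

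The 10 genes with the highest rho to the index, out of all 10859, included 5 of the listed targets: Apaf1, Plk2, Btg2, Dcxr and Siva1. The other 5 were Gtse1 (0.571), which was found as a p53-inducible gene in mouse cells and whose product binds p53, B430305J03Rik (0.547), Ddit4l (0.539), a relative of the mTORC1 inhibitor Ddit4, Csnk1g1 (0.531), a casein kinase, and St14 (0.519), the membrane protease matriptase. At the lowest end stood Set (-0.534), a histone chaperone, Map1b (-0.513), a microtubule-associated protein, Tada3 (-0.508), a subunit of histone acetyltransferase complexes, Rpl27 (-0.478), a ribosomal protein, and Akr1b3 (-0.473), an aldose reductase. Set and Rpl27 have near-identical copies in the genome and their counts are uncertain. This order of genes changed with the cells used: only 1 of these 10 genes was among the 10 highest in plate rows A to D, and 1 in rows E to H. Of the 8 top genes with a promoter window, 3 held the decamer, against 9.55% of all genes with one.

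Cdkn1a alone gave a partly different picture. Of the 30 listed targets 10 reached 0.3 with it, against 3.29% of tested genes, and their median was 0.169, against 0.0163 over all. Its nearest genes were Cstb (0.603), a cathepsin inhibitor, Cald1 (0.557), an actin-binding caldesmon, Tpm3-rs7 (0.532), a tropomyosin retrocopy whose reads cannot be told from those of Tpm3, Commd3 (0.528) and Apaf1 (0.528). Chek1 had -0.393, against 2.74% of tested genes at or under -0.3. Trp53 reached 0.3 with 0 of the 30 targets, against 1.31% of tested genes, so a count of 0 is near the background. It stood at or under -0.3 with 3 of them, against 1.12% of tested genes: Sfn (-0.484), Perp (-0.361) and Rps27l (-0.340). Over the 30 targets the median rho with Trp53 was -0.0239 and 13 were positive, against a median of 0.00370 over all. The genes nearest to Trp53 were Zcchc7 (0.480), Tgif1 (0.467), Fth1 (0.453), Ints14 (0.445) and the pseudogene Rpsa-ps9 (0.437), whose reads cannot be told from those of Rpsa. None of these 5 is on a p53 list.

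The cell cycle was looked at because p21 acts on it. The index had a rho of -0.0158 with a score of 28 G1/S genes and of 0.178 with a score of 29 G2/M genes. The G2/M value was -0.0481 in plate rows A to D and 0.401 in rows E to H. No gene of the G1/S list reached 0.3 in either direction. Of all tested genes 2.04% stood at or over 0.3 and 1.55% at or under -0.3, so that count of 0 is near the background. Of the G2/M list 3 genes reached 0.3: Mki67 (0.353), Ndc80 (0.329) and Top2a (0.309), against the same 2.04%. Cdkn1a had -0.122 with the G1/S score and 0.0470 with the G2/M score. Trp53inp1 had the lowest value of any member with the G1/S score, -0.302.

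The listed stem cell markers lay below zero. All 8 had a negative rho with the index, from -0.0838 for Pou5f1 to -0.373 for Sall4, a zinc-finger factor of the stem cell network. Sall4 was the 1 of 8 at or under -0.3, against 1.55% of tested genes. Of 14 tested naive pluripotency genes 3 had a positive rho with the index. Their median was -0.112, and 0 passed 0.3 in size. Of all tested genes 2.04% stood at or over 0.3 and 1.55% at or under -0.3, so this count of 0 is near the background. Over all tested genes 5320 of 10859 were positive. With Cdkn1a, Sox2 had -0.419 and Sall4 -0.387. Nanog had -0.114 with the index and -0.0541 with Cdkn1a, neither past 0.3 in size. The summed level of the 8 markers ran from 221 to 12647 CPM over cells and had a rho of -0.160 with the index. The summed fibroblast markers had 0.179, primitive endoderm markers 0.252, trophectoderm markers 0.0928 and neurectoderm markers 0.211. All these sums were CPM not adjusted for the share of genes detected, set against the adjusted index. The fibroblast and primitive endoderm sums were 0 CPM at the median, so many cells were tied. The neurectoderm marker Sox1 and the trophectoderm marker Elf5 were at 0 in every cell. Even so, 3 of 5 neurectoderm and 4 of 6 trophectoderm markers passed the filter. The part of marker differences between cells in the spread of the targets was not tested.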

How the data were processed

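The authors deposited whole-number read counts per Ensembl gene, made with GSNAP 2014-02-28, SAMtools 0.1.18 and bedtools 2.19.1 on GRCm38, per the submitters' processing notes. Not given in the sources used here are the counting rule, the annotation release and whether strand was used. The deposited normalized table was not used here. ERCC rows (5.37e-06% of counts) were left out. Counts were scaled to CPM by TMM (edgeR 4.0.16, R 4.3.3), a gene was kept if 10 or more cells had 10 or more of its counts, and residuals of log2(CPM + 1) on the share of genes detected were correlated by Spearman's rho (scipy 1.17.1). Exon lengths came from GENCODE M21. The index is the mean z-score of the 8 targets.

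Members, lists and tests were chosen with earlier results of these data known. With 1 culture and 1 cell per sample, no significance test was made, and 0.3 in size is a descriptive limit. Genes named are the members, the 10 highest and 5 lowest with the index, the 5 highest with Cdkn1a and with Trp53, and in each p53 list those past 0.3 and the 3 of highest mean; other genes in the text were fixed single genes or were picked after their values were seen. Calculations were tested on simulated data. The alternatives were DESeq2 1.42.0 size factors, plain CPM, other filters, a pseudocount of 10, no covariate, Pearson's correlation, thinning, each part of the plate, and the loss of extreme cells; 2 were added after seeing the data.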

Additional observations from a re-analysis of the deposited data

How the results depend on the processing

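Of 476 values recomputed under the alternatives, 438 stayed near the reported one and 38 moved. For counts, shares and CV2 ratios near meant within a factor of 1.5, and for levels within the standard deviation over cells, a wide limit. The rho of single pairs and of single listed genes were not recomputed one by one. Recomputed rho values of 0.3 or more were those of members with the index of the others and a median over pairs, and none changed sign. The 15 listed targets at or over 0.3 with the index numbered 11 to 15 under the alternatives, and 10 to 15 of them were shared with the reported 15. Of the 10 highest genes with the index, 6 to 10 were shared under the alternatives over nearly all cells, but 1 in rows A to D and 1 in rows E to H. The 12 pairs of targets numbered 10 to 13. The values that moved were mostly background percentages. Genes at or over 0.3 with the index were 3.27% with no covariate, 1.12% with no filter, 5.54% in plate rows A to D and 7.83% in rows E to H, and at or under -0.3 they were 0.819% with no filter, 6.78% in rows A to D and 6.60% in rows E to H. With Cdkn1a the shares at or over 0.3 were 2.06% by Pearson's correlation, 1.83% with no filter, 5.80% in rows A to D and 9.18% in rows E to H, and at or under -0.3 they were 1.59%, 5.40% and 9.88% with no filter and in the same parts of the plate. With Trp53 the shares at or over 0.3 were 0.673% with no filter, 5.75% in rows A to D and 6.93% in rows E to H, and at or under -0.3 they were 1.897% by Pearson's correlation, 0.691% with no covariate, 0.579% with no filter, 3.70% in rows A to D and 7.42% in rows E to H. Each part of the plate holds 33 or 28 cells, and rho over fewer cells spreads wider. Target genes at or over 0.3 with Trp53 numbered 1 with no covariate and 1 in rows A to D. The CV2 ratio of Bbc3 was 0.870 under the stricter filter, 0.677 in rows A to D and 1.20 in rows E to H. The index had a rho of 0.0978 with the ATF4 score with no covariate and of 0.0914 in rows E to H. With the G2/M score it was -0.0481 in rows A to D and 0.401 in rows E to H, and with the mitochondrial share -0.214 and 0.321. In rows E to H Mdm2 had 0.588, Ccng1 0.322 and Bax 0.186 with the index of the others. The cause of these shifts was not tested. Without the cells in A09 and F03, 14 listed targets reached 0.3, and without those in C01 and B09, 13 did. No paired analysis was possible because the wells carry no shared numbers between groups and 1 group was used. Depth limits Bbc3 most, with a median of 17 counts.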

Other observations

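Immediate early genes answer growth factors and handling within minutes. With a score of 11 such genes Phlda3 had a rho of 0.412 and Trp53inp1 of 0.356 over 61 cells, while Bax had -0.412. The other 5 targets lay between -0.109 for Zmat3 and 0.257 for Mdm2, the index had 0.126, and the difference between members was not tested. Within that list of 11 genes the median rho with the index was 0.0562. Egr1 (0.317) reached 0.3, against 2.04% of tested genes. Myc (-0.312), a growth regulator, stood at or under -0.3, against 1.55%. A score of 13 tested genes of the ATF4 stress response had -0.105 with the index, and with Cdkn1a its 13 genes had a median rho of -0.0388, with 3 positive and 1, the cystine transporter gene Slc7a11 (0.424), at or over 0.3, against 3.29% of tested genes.

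The mesendoderm score parted the cells into 8 above and 53 below a gap. Among the 53, Mdm2 had a rho of 0.354 with the score, Trp53inp1 0.319 and the index 0.256, while Trp53 and Bax each had -0.187. Among the 8 the index had -0.262, over 8 cells only. Over all cells Wnt3, a signal of primitive streak formation, had 0.415 with the index. It was the 1 of 6 tested genes of the mesendoderm list at or over 0.3, against 2.04% of tested genes. The median of the list was 0.144. The naive pluripotency score parted 11 cells from 50. With this score Cdkn1a had 0.30 among the 11 and -0.321 among the 50. Without the 2 cells farthest from the median, Cdkn1a had 0.217 among the 11 and -0.232 among the 50. Members ran from -0.427 for Mdm2 to 0.30 for Cdkn1a among the 11, over 11 cells only. They ran from -0.321 for Cdkn1a to 0.162 for Bax among the 50. The index had -0.236 among the 11 and -0.0718 among the 50.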
